A study of Rattus norvegicus with 12 samples.

Results

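Cyp4a2, Cyp4a1, Cyp4a3, Ehhadh, Cpt1a, Acsl1, Pdk4 and Ppara are 8 genes of fatty acid oxidation, taken by name from the 32883 genes of the rat liver atlas. They were chosen by name around Cyp4a2, itself selected on its level in DA against LEW hepatocytes, and the question was whether a wider PPAR-alpha response came with it. Livers came from healthy male Dark Agouti (DA) and Lewis (LEW) rats with free access to chow, without any treatment. Whole cells of total liver homogenate (TLH) and nuclei of snap frozen liver were each profiled from 2 DA and 2 LEW rats, immune-enriched cells from 1 rat of each strain, and Visium spots from sections A and B of Wistar liver. The series text gives an age of 8 to 10 weeks for the homogenate rats and the methods of the study give an older age, the same for both strains. The ages marked on the deposited TLH libraries are higher for LEW than for DA, and LEW rats were heavier than DA rats, so strain, body weight and any difference in age cannot be told apart here.

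PPAR-alpha is a nuclear receptor that fatty acids activate, and in liver it pairs with a retinoid X receptor on direct repeats of AGGTCA to switch on fatty acid oxidation during fasting. The Cyp4a enzymes hydroxylate fatty acids at the omega carbon in the endoplasmic reticulum, which feeds peroxisomal oxidation, where Ehhadh acts. Acsl1 activates fatty acids to acyl-CoA, Cpt1a carries them into mitochondria, and Pdk4 restrains glucose oxidation. Ppara encodes the receptor itself.

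The promoters of Cyp4a2 and Cyp4a3 are shown because the genes are near copies of each other in this window. The split of counts between similar genes can be uncertain. The libraries read the far end of the transcript, which was not compared, so identity in this window does not tell how counts were split. How far reads of one gene were counted for the other, in the strain and the zone values alike, was not tested. RefSeq (GRCr8) places the windows, 250 bases before to 50 after the start, on the minus strand at chr5:134170859-134171158 for Cyp4a2 and chr5:134352187-134352486 for Cyp4a3. Capitals mark AGGTCA or its complement.
Cyp4a2: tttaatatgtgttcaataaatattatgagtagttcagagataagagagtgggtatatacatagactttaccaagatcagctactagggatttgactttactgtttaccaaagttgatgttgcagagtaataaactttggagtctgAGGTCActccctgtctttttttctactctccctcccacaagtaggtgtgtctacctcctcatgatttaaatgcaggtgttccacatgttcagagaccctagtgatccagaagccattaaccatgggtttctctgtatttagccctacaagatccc
Cyp4a3: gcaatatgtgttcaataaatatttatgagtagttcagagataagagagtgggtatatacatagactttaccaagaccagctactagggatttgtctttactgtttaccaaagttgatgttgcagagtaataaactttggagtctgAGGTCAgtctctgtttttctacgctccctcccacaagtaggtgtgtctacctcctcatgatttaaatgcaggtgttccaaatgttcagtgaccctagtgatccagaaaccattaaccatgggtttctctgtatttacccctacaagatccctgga
The windows were 93.1% identical, against 58.6% between Cyp4a2 and Cyp4a8, the remaining Cyp4a gene. Both held 1 AGGTCA at position -105, a motif found on either strand in 16.2% of 33469 promoters of that length. The direct repeat with 1 base between was in none of the 8 windows found, those of Cyp4a8 and 7 members without Cyp4a1, and in 0.0538% of all promoters. Whether alleles that differ from the reference changed the counts of a strain was not tested.

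Hepatocytes were the clusters with at least 3 hepatocyte markers among their leading genes, as detailed under the processing, and neither the 8 genes nor the target lists took part in the clustering. They numbered 16025 TLH cells, 11132 nuclei and 1860 cells of the immune-enriched libraries. In TLH, 2 of these clusters, of 2797 and 1472 cells, were led by mitochondrial transcripts. Total UMIs per library ranged from 61441846 to 92484173 in TLH and from 8039397 to 15186970 in nuclei, and came to 48255870 and 60005133 in the immune-enriched cells and to 34449562 and 34827603 in the sections. Free RNA was large in TLH and nuclei: Alb in other cell classes reached 37.5 to 82.2% of its hepatocyte level in TLH and 27.9 to 113% in nuclei, but 0.683 to 2.36% in the DA and 3.21 to 27.2% in the LEW immune-enriched library. In hepatocyte sums, the 18 mesenchymal markers came to 511 to 562 CPM (UMIs of a gene scaled to a common total of the class) in DA and 697 to 982 CPM in LEW TLH, and to 203 to 207 CPM in DA and 301 to 306 CPM in LEW nuclei. The 13 Kupffer markers came to 486 to 550 against 401 to 620 CPM in TLH, and to 118 to 119 against 166 to 177 CPM in nuclei. Endothelial markers came to 246 to 274 against 163 to 237 CPM in TLH, and to 170 to 186 against 184 to 248 CPM in nuclei. For cholangiocyte markers the values were 47.6 to 48.8 against 33.8 to 36.8 CPM, and 36.0 to 36.6 against 31.7 to 38.2 CPM. T/NK and plasmacytoid dendritic cell markers also lay higher in DA TLH. The part of these in the strain values was not tested.

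Cyp4a2 was the member with the widest strain difference in TLH and nuclei. In TLH hepatocytes it stood at 928 and 1069.6 CPM in DA and at 109 and 54.3 CPM in LEW. In nuclei it stood at 2346 and 2109 CPM in DA and at 152 and 93.5 CPM in LEW, so the strains lay far apart on both platforms. The log2 fold change of DA over LEW was 3.59 ± 0.39 (SE, n = 2 rats per strain) in TLH and 4.15 ± 0.51 in nuclei. As Cyp4a2 was chosen for this contrast, these values are a description without a test. Without LEW replicate 1 they were 4.17 and 4.68, and without LEW replicate 2 the TLH value was 3.18. The series text calls the rats of the nuclei additional, while the TLH and nuclei libraries were deposited under the same animal numbers, so the platforms are not treated here as 2 independent sets.

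The immune-enriched libraries gave a smaller gap, and free RNA was also lowest there. Cyp4a2 was at 1453 CPM in DA hepatocytes (exact 95% Poisson interval 1420 to 1487) and at 521 CPM in LEW (514 to 529), a 2.79-fold difference (2.71 to 2.86). These intervals and all others on single libraries cover counting error only, and 1 rat per strain allows no test. The LEW level there was above that of every LEW TLH and nuclei library. Hepatocyte clusters of 642 and 325 cells had median depths of 38141 and 38376 UMIs there, and Cyp4a2 was among the leading genes of the larger. The kit version also differed from that of TLH. The part of free RNA, depth, cluster make-up and kit in the smaller gap was not tested. Wistar sections held 37.4 and 45.9 CPM over all spots, below every hepatocyte library of either strain, on another assay and with all cell types in a spot.

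**Figure D1:**
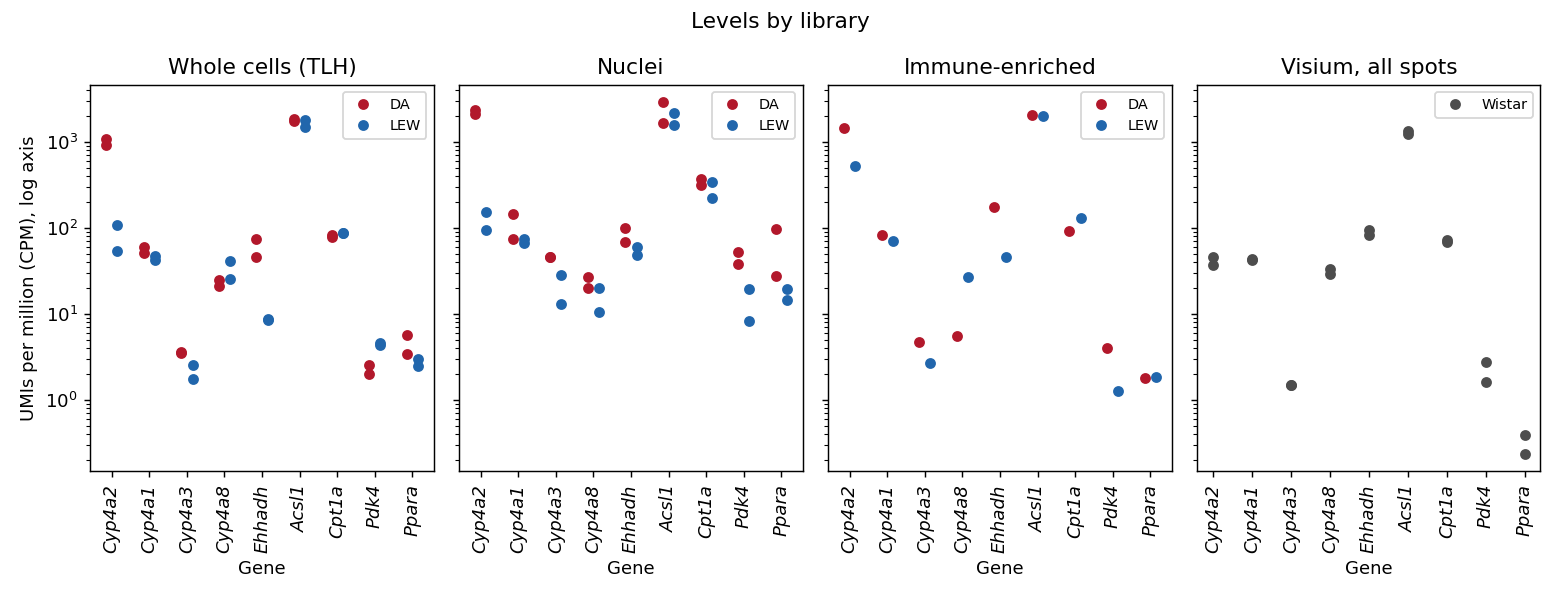
Level of the 8 genes and Cyp4a8 in CPM (log axis), in hepatocytes of each TLH, nuclei and immune-enriched library and over all Visium spots. Each point is a library, DA in red, LEW in blue and Wistar in grey, and Cyp4a2 shows the widest gap between strains in TLH and nuclei, 928 and 1069.6 against 109 and 54.3 in TLH.

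A Cyp4a2 UMI was found in most DA and few LEW hepatocytes of TLH and nuclei. With every cell thinned to 1500 UMIs, 70.4 and 76.6% of DA and 13.0 and 6.88% of LEW TLH hepatocytes held a Cyp4a2 UMI. With nuclei thinned to 1000 UMIs, the shares were 82.1 and 80.4% in DA and 12.7 and 7.70% in LEW. Kupffer cells, which should lack the gene, held it without thinning in 62.5 and 85.8% of DA TLH cells at medians of 2037 and 2934 UMIs, beside 77.8 and 90.7% of hepatocytes at medians of 1819 and 2622 UMIs. In DA nuclei, 73.4 and 63.7% of Kupffer nuclei held it at medians of 1422 and 1308 UMIs, beside 92.1 and 92.1% of hepatocyte nuclei at medians of 1617 and 1834 UMIs. In DA the share was thus high in a class that should lack the gene, though lower than in hepatocytes of the same rat. In the immune-enriched libraries the shares without thinning were 64.8% of DA and 58.5% of LEW hepatocytes, against 2.94 and 17.3% of Kupffer cells. Median depths there were 6442 UMIs in DA and 13306 UMIs in LEW hepatocytes, and 11724 and 13292 UMIs in Kupffer cells, so the hepatocyte shares of the strains are not compared.

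In TLH and nuclei the other Cyp4a genes differed far less by strain. Cyp4a1 was at 60.2 and 50.7 CPM in DA and 46.5 and 42.2 CPM in LEW TLH hepatocytes, and at 73.1 and 143.8 against 65.8 and 73.6 CPM in nuclei, where the groups overlapped. Cyp4a3 was low, at 3.6 and 3.5 against 2.5 and 1.7 CPM in TLH and at 45.9 and 45.7 against 12.9 and 27.9 CPM in nuclei. Cyp4a8 was at 24.6 and 21.2 CPM in DA and 40.8 and 25.7 CPM in LEW TLH hepatocytes, and its log2 fold change of -0.57 did not pass the test in TLH (edgeR quasi-likelihood, Benjamini-Hochberg adjusted p = 0.190). In nuclei it was at 20.2 and 26.7 CPM in DA against 19.8 and 10.4 CPM in LEW, a log2 fold change of 0.56 that did not pass either (edgeR adjusted p = 0.703). The 1 DA immune-enriched library held 5.54 CPM of Cyp4a8 against 27.0 CPM in LEW, a fold of 0.205 (0.136 to 0.299), which is a wider gap than that of Cyp4a2 in those libraries and in the other direction.

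Ehhadh, the peroxisomal bifunctional enzyme, had a larger strain value in TLH than in nuclei, though this difference did not pass the interaction test given below. It stood at 45.5 and 75.0 CPM in DA and 8.57 and 8.67 CPM in LEW TLH hepatocytes, a log2 fold change of 2.79 ± 0.28 (SE). In nuclei it stood at 68.3 and 100.3 against 59.1 and 48.2 CPM, a log2 fold change of 0.61 ± 0.32 that did not pass (edgeR adjusted p = 0.574). The immune-enriched libraries gave 174 against 45.4 CPM, a 3.82-fold difference (3.51 to 4.16). In DA TLH, other cell classes held Ehhadh at 69.5 to 124% of the hepatocyte level, and the part of free RNA in the TLH value was not tested.

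Acsl1 and Cpt1a were not called by strain in TLH or nuclei, where 4.28 and 1.28% of all genes were called. From a missing call of a member nothing is read either, as the rule used this contrast. Acsl1 was at 1854 and 1764 CPM in DA and 1823 and 1504 CPM in LEW TLH hepatocytes, with overlapping groups, and at 1682 and 2876 against 2145 and 1559 CPM in nuclei, again overlapping. Its immune-enriched ratio was 1.02 (1.00 to 1.05). Cpt1a was at 77.9 and 81.5 against 85.9 and 87.1 CPM in TLH. Both DA rats lay there below both LEW rats, as for 24.1% of all genes. In nuclei Cpt1a was at 374 and 318 against 221 and 345 CPM, and the groups overlapped. The immune-enriched ratio of Cpt1a was 0.693 (0.628 to 0.763). Pdk4 was lower in DA in TLH (2.0 and 2.5 against 4.6 and 4.3 CPM), on 17 to 49 UMIs, which did not pass (edgeR adjusted p = 0.119). It was higher in DA in nuclei (37.6 and 52.2 against 8.3 and 19.2 CPM). The difference between these platforms did not pass the interaction test given below. In the immune-enriched libraries Pdk4 was also higher in DA, 3.1-fold (1.73 to 5.4) on 20 and 42 UMIs. Ppara was at 3.4 and 5.6 against 3.0 and 2.5 CPM in TLH, and at 97.7 and 27.4 against 19.4 and 14.5 CPM in nuclei, where DA replicate 1 stood above the rest (log2 fold change 1.88 ± 0.61, and 0.55 without that rat).

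Over all genes, 4.28% of those tested in TLH and 1.28% of those in nuclei passed the strain test. Cyp4a2 and Ehhadh were the 2 members past it in TLH, and Cyp4a2 and Pdk4 in nuclei, from which nothing is read since the rule used this contrast. In TLH Cyp4a2 missed the threshold without DA replicate 1 (3.71), without DA replicate 2 (3.44) and with the replicate block (3.66), and Ehhadh without LEW replicate 1 (2.77) or LEW replicate 2 (2.81). In nuclei Cyp4a2 missed it without LEW replicate 1 (4.68) and Pdk4 without LEW replicate 1 (1.32) or LEW replicate 2 (2.29) and with RLE scaling (1.74), while Ppara passed by DESeq2 (1.88), with no filter on low counts (1.82), with the replicate block (1.65) and without DA replicate 2 (2.56), and Cyp4a3 passed with no filter on low counts (1.16) and with the replicate block (1.25). The strain difference itself was compared between TLH and nuclei by an interaction test that takes the 8 libraries as separate rats, and which 0.00865% of all genes passed. None of the 8 members did so (edgeR), while 2 had an unadjusted p under 0.05, beside 516 of 11559 genes. The interaction of Ehhadh was -2.15 ± 0.43 on the log2 scale (edgeR adjusted p = 0.421) and that of Pdk4 2.77 ± 0.46 (edgeR adjusted p = 0.164), which passed once LEW nuclei replicate 2 was left out (3.26).

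Lists of PPAR-alpha target genes outside the 8 were chosen by textbook role. They also hold receptors, cofactors and other genes of fatty acid handling, and whether each is a target in these livers was not tested. Of these genes, called target genes here for short, 11 of 82 in TLH and 3 of 83 in nuclei passed the strain test. Over all genes 4.28 and 1.28% passed. Of 82 measured target genes in TLH hepatocytes, 3 were higher and 8 lower in DA, where 2.25 and 2.03% of all genes were called in these directions. Their median log2 fold change was 0.0232 beside 0.00792 over all genes. In nuclei 1 of 83 was higher and 2 were lower, beside 0.743 and 0.536% of all genes, with a median of 0.136 beside -0.0278. Both DA rats lay above both LEW rats for 26 of 82 target genes in TLH and 23 of 83 in nuclei, beside 29.0 and 18.6% of all genes, and below for 16 and 17, beside 24.1 and 18.0%. In TLH, leaving out DA replicate 1 gave 5 higher and 5 lower, DA replicate 2 gave 1 and 6, LEW replicate 1 gave 2 and 0, and LEW replicate 2 gave 2 and 3. In nuclei, leaving out DA replicate 2 gave 3 higher and 2 lower. Without LEW replicate 1 or LEW replicate 2 the nuclei calls did not hold. The median log2 fold change was then 0.109 and 0.122, beside 0.0125 and 0.0482 over all genes. In the main fits 24 of 82 target genes in TLH and 16 of 83 in nuclei had an unadjusted p under 0.05. Over all genes these were 2087 of 9852 and 1099 of 10627.

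The target genes that changed went in both directions and belonged to separate steps. Acsm3, a medium-chain acyl-CoA synthetase, rose in DA in TLH, from 0.372 and 0.144 CPM in LEW to 24.6 and 16.9 CPM, and in nuclei, from 1.62 and 3.07 to 25.2 and 47.3 CPM. The LEW TLH values rest on 4 and 1 UMIs. Fgf21, the fasting hormone secreted by liver, was lower in DA, at 2.33 and 1.42 against 8.75 and 5.06 CPM in TLH and at 2.06 and 5.44 against 24.3 and 46.0 CPM in nuclei. Abhd5, the activator of the main triglyceride lipase, was also lower on both platforms, with log2 fold changes of -1.25 ± 0.14 and -1.71 ± 0.36 (SE, edgeR adjusted p = 0.00295 and 0.0461).

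In TLH 2 of 18 mitochondrial and 2 of 16 peroxisomal genes passed, beside 4.28% of all genes. At an unadjusted p under 0.05 were 2 and 5, beside 2087 of 9852 genes. None of the 18 or 16 passed in nuclei by edgeR, and DESeq2 called 0 and 1. There 1 of 18 and 3 of 16 had an unadjusted p under 0.05, beside 1099 of 10627 genes. Acadm, medium-chain acyl-CoA dehydrogenase, was higher in DA in TLH (0.74 ± 0.14, edgeR adjusted p = 0.0258) and the mitochondrial Etfdh was lower (-0.64). In the peroxisomal list Amacr, a racemase, was lower (-1.03). Of 9 omega-oxidation genes, Cyp4f5 (-3.24) and Cyp4f6 (-0.76) were lower, and DESeq2 did not call Cyp4f5. The Cyp4f5 value rests on 2 and 2 UMIs in DA and 20 and 13 in LEW. Fabp1, the liver fatty acid-binding protein, was lower in DA TLH (-0.90), and so was Ephx2, soluble epoxide hydrolase (-3.10), whose nuclei levels of 36.9 and 11.2 against 17.7 and 21.3 CPM overlapped. None of the 5 ketogenesis genes passed in TLH by edgeR or DESeq2, with 1 at an unadjusted p under 0.05. None of the 9 receptor and cofactor genes passed by edgeR, with 1 at an unadjusted p under 0.05 and 1 called by DESeq2.

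**Figure D2:**
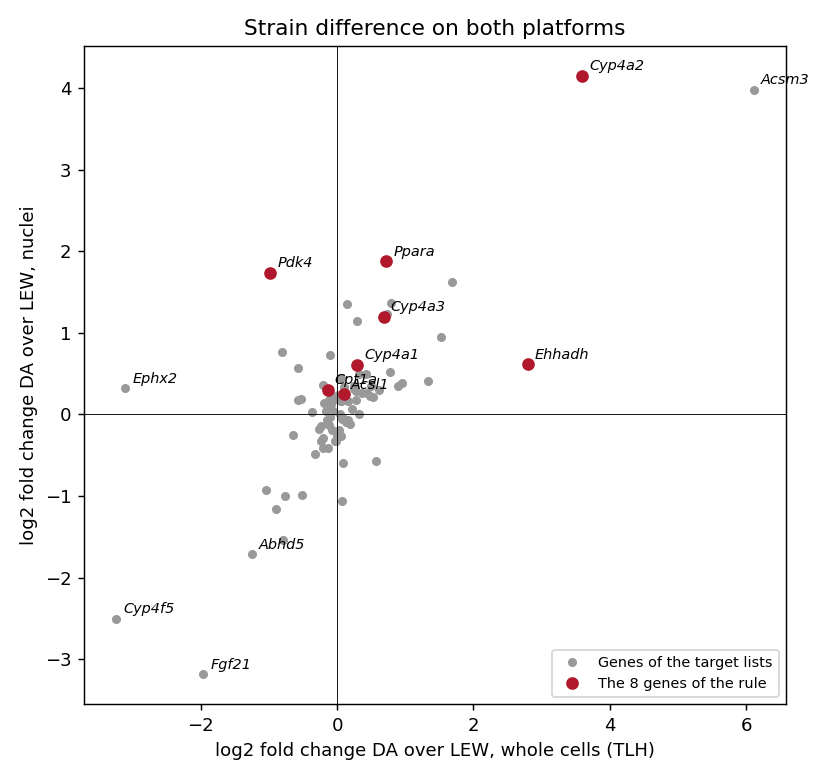
Log2 fold change of DA over LEW in TLH hepatocytes (horizontal) and hepatocyte nuclei (vertical) for the target genes (grey) and the 8 genes (red), each point a gene. Target genes spread to both sides of 0, with medians of 0.0232 in TLH and 0.136 in nuclei. Acsm3 and Cyp4a2 lie at the upper right, and Acadm lies there nearer to 0. Fgf21, at -1.96 and -3.18, lies at the lower left with Cyp4f5, Abhd5 and Acsl5. Target genes not called on either platform also lie off 0 on the same side on both, some higher and some lower in DA.

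Fasting and lipogenic lists were set beside these, and Ppargc1a stands on both the fasting list and a target list. Of 9 fasting and glucocorticoid genes in TLH, 1 was higher (Tsc22d3, a glucocorticoid-induced gene, 2.21 ± 0.32) and none lower, beside 2.25 and 2.03% of all genes, with a list median of 0.692 beside 0.00792 over all genes, 3 at an unadjusted p under 0.05 and 3 called by DESeq2. In nuclei none of 10 passed by edgeR, beside 1.28% of all genes, with a median of 0.838 beside -0.0278, 4 at an unadjusted p under 0.05 and 3 called by DESeq2. Of 12 lipogenic genes in TLH 3 passed, beside 4.28% of all genes, with 6 at an unadjusted p under 0.05 and 5 called by DESeq2. Acacb was higher (1.69), and Pnpla3 (-1.18) and Acly (-0.74) were lower. In nuclei none of 12 passed by edgeR, with 3 at an unadjusted p under 0.05 and 1 called by DESeq2. Over all genes, 2087 of 9852 in TLH and 1099 of 10627 in nuclei had an unadjusted p under 0.05.

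Zone was compared in nuclei, with a score of 11 periportal and 6 or 7 pericentral genes that left out the 8 members. Nuclei of each rat were divided into 3 equal parts by score, and the periportal part was set against the pericentral part with the rat as a block. Between 293 and 762 nuclei per rat lay near a cut, and in DA the periportal part was deeper, with medians of 2056 and 2175 UMIs against 1375 and 1716. Cyp4a2 was higher on the portal side in each rat, at 2013 against 2503 and 1706 against 2453 CPM (pericentral against periportal) in DA, and at 72.5 against 230.3 and 28.7 against 156 CPM in LEW. Over the 4 rats its log2 fold change of 1.05 ± 0.32 missed the threshold (edgeR adjusted p = 0.0899), and it ranged over alternatives from 0.68 to 1.38. It passed with the zone genes of the study alone (1.27), with no filter on low counts (1.06) and without DA replicate 1 (1.38).

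Cyp4a3 and Cyp4a8 were higher on the portal side. Cyp4a3 changed by 1.44 ± 0.24 (edgeR adjusted p = 0.00134) and was the 1 member of 8 to pass, beside 2.24% of all genes called higher. Cyp4a8 changed by 1.22 ± 0.23 (edgeR adjusted p = 0.00414). Cpt1a gave 0.48 ± 0.18, Ppara 0.32 ± 0.19, Cyp4a1 -0.0032 ± 0.19, Acsl1 -0.17 ± 0.21, Pdk4 -0.29 ± 0.19 and Ehhadh -0.31 ± 0.18, none past the threshold. With the zone genes of the study alone, Cyp4a3 still passed at 0.89, while the sign turned for Ehhadh (0.21), Acsl1 (0.14), Cyp4a1 (0.29) and Ppara (-0.15), none past the threshold.

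The zone difference of Cyp4a2 was smaller in DA on the log scale. The ratio of the periportal to the pericentral part was 1.24 and 1.44 in DA and 3.18 and 5.45 in LEW, and the interaction was -1.84 ± 0.32 (edgeR adjusted p = 3.4e-05). In CPM the step was wider in DA, 489 and 748 against 158 and 128. The call was lost without LEW replicate 1 (-2.22) and without LEW replicate 2 (-1.56). Cyp4a2 in other nuclei classes reached 32.0 to 59.4% of the hepatocyte level in DA and 31.1 to 73.5% in LEW, and the part of that free RNA in the ratios was not tested. Cyp4a3 went the other way, with ratios of 4.03 and 5.55 in DA and 1.35 and 2.44 in LEW and an interaction of 1.14 ± 0.36 (edgeR adjusted p = 0.0410), which no fit with a rat left out passed. Over all genes 0.784% were called larger and 3.99% smaller in DA.

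On the Wistar sections, Cyp4a2 and Cyp4a8 were again higher in periportal spots. Cyp4a2 was at 26.5, 35.1 and 50.6 CPM in the pericentral, middle and periportal spots of section A and at 29.3, 41.3 and 65.2 CPM in those of section B, a ratio of 1.91 (1.66 to 2.20) and 2.22 (1.95 to 2.54). Cyp4a8 gave 2.22 (1.88 to 2.62) and 2.08 (1.78 to 2.43), and Cpt1a 1.20 (1.09 to 1.33) on both. Cyp4a1, at 0.985 and 0.883, Ehhadh, at 0.934 and 0.940, and Acsl1, at 0.981 and 0.957, were flat or nearly so. Pdk4 was lower periportally (0.441 and 0.229) on 18 against 41 and 8 against 32 UMIs. Cyp4a3 showed no periportal rise at this depth, with ratios of 0.794 (0.375 to 1.65) and 0.724 (0.342 to 1.5) on 15 against 19 UMIs in each section. A spot holds several cells, and no test was run over the sections.

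**Figure D3:**
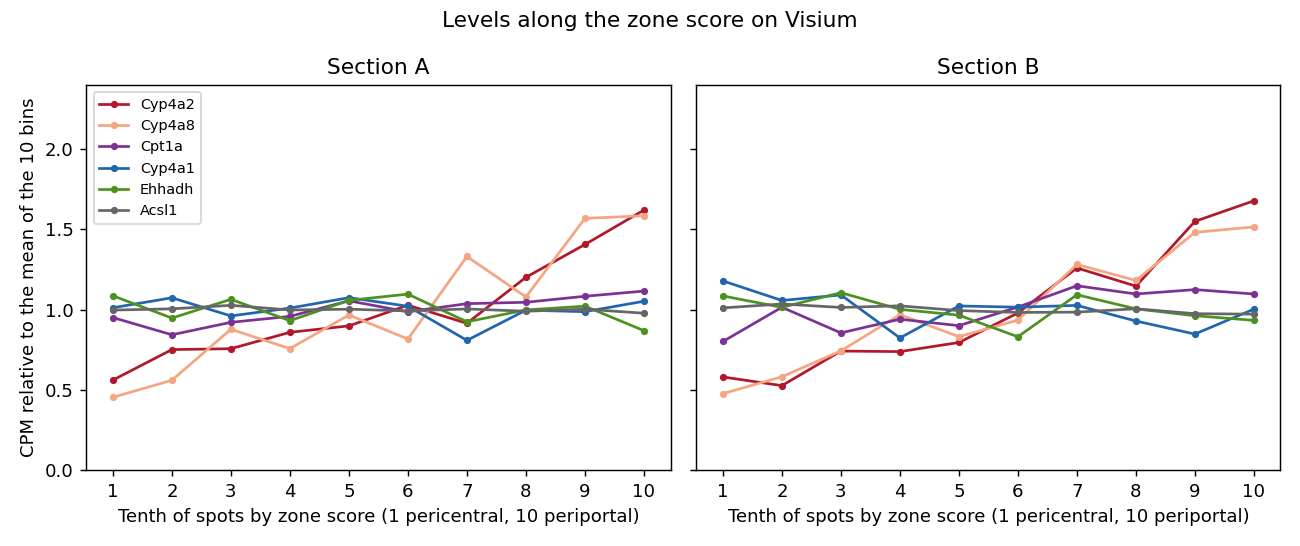
Level along 10 equal bins of spots by zone score (horizontal, pericentral to periportal) relative to the mean of the bins, for 6 genes in sections A and B. Cyp4a2 and Cyp4a8 climb together, while Acsl1 stays close to 1.

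Target genes went in both directions by zone. Of 79 target genes 5 were higher and 4 lower in the periportal part, with 2.24 and 1.81% of all genes called. Crot, which moves peroxisomal products to mitochondria, rose by 2.22 ± 0.24, and the coactivators Ppargc1a and Ppargc1b by 2.39 and 1.09. The Ppargc1a value rests on 26 and 9 UMIs in DA and 14 and 33 in LEW over all hepatocyte nuclei. Cyp4a8 and Fgf21 (0.93) were the remaining genes called higher, and DESeq2 did not call Ppargc1b or Fgf21. Acsm3 (-1.78), Slc27a5, a bile acid and fatty acid ligase (-1.27), Acsl5 (-1.17) and Amacr (-1.16) were lower, and DESeq2 did not call Acsl5. Without DA replicate 2 the counts were 2 and 2, and without LEW replicate 1 they were 5 and 8.

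Hepatocytes with a Cyp4a2 UMI were compared with those without one inside each rat, after thinning. A UMI may be free RNA: other cell classes held Cyp4a2 at 49.7 to 79.1% of the hepatocyte level in DA TLH and 21.7 to 62.7% in LEW TLH, and at 32.0 to 59.4% and 31.1 to 73.5% in nuclei, so the division is by the UMI and not by expression of the gene. The part of free RNA in the values was not tested. In nuclei Ehhadh rose by 0.70 ± 0.18 (edgeR adjusted p = 0.00648) and Cyp4a1 by 0.55 ± 0.16 (edgeR adjusted p = 0.0179), and Ppara fell by 0.75 (edgeR adjusted p = 0.0297). These were 2 members higher and 1 lower of 7, where 8.63 and 4.82% of all genes were called higher and lower. Ehhadh and Cyp4a1 missed the threshold without DA replicate 1 (0.61 and 0.47) and without DA replicate 2 (0.57 and 0.52), and Ppara missed it without DA replicate 1 (-0.41). Of 76 target genes 9 were higher, among them Cyp4a8 (0.97), Crot (1.02), Acot2 (1.07) and Fabp1 (0.78), and 1 lower (Amacr, -0.48), with 2 and 0 left without DA replicate 1 and 3 and 0 without DA replicate 2. Nuclei with the UMI had higher zone scores, by rat 0.024, 0.046, 0.24 and 0.28 against -0.11, -0.19, -0.035 and -0.024, and the part of zone in these values was not tested.

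In the same comparison of TLH cells Acsl1 was the 1 member of 7 to rise, by 0.14 ± 0.04 (edgeR adjusted p = 0.0312), beside 1.99% of all genes called higher and 1.29% lower, and it missed the threshold without DA replicate 1 (0.12), LEW replicate 1 (0.15) or LEW replicate 2 (0.14). Of 77 target genes 3 were higher, Cyp4a8 (0.60), Retsat (0.29) and Slc27a2 (0.22), and Fabp1 was lower (-0.17), which is the opposite direction to nuclei. Without DA replicate 1 no target gene passed by edgeR, with 11 at an unadjusted p under 0.05.

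None of the 5 genes closest to Cyp4a2, over sums or over spots, was a member or on a target list. The 8 members and 94 listed target genes are a small part of the genes compared, so nothing is read from this. Over the 8 hepatocyte sums, centred by platform, the 5 highest Pearson r among 9185 genes were those of Apol3, Lrrfip1, Scpep1, Fbxo9 and Tas1r1, from 0.988 to 0.997. Among the other members r was 0.854 for Cyp4a3, 0.784 for Ehhadh, 0.742 for Ppara, 0.668 for Cyp4a1, 0.389 for Acsl1, 0.274 for Pdk4 and 0.188 for Cpt1a. The sums fall apart by strain, the contrast Cyp4a2 was chosen on, so this order is a description only. Over Visium spots, which share depth and section, the 5 highest mean r among 7358 genes lay from 0.208 to 0.225. They were those of AABR07004549.1, Pck1, Spink1l, Orm1 and Alb. Of these, Orm1 is a gene of the zone score and Pck1 is on the fasting list.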

How the data were processed

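Per the submitters' processing notes, the authors ran Cell Ranger 3.1.0 and Space Ranger 1.1.0. The deposited values are raw UMI counts of each gene in each barcode or spot, not normalized. TLH and immune-enriched counts took gene names by row from the nuclei list. Cells were filtered on the study's limits, with 2000 UMIs for LEW TLH in place of the stated 1500, because this leaves the authors' cell numbers. The TLH limits thus differed by strain, at 1500 and 2000 UMIs in DA and 2000 in LEW. The highest mitochondrial share kept was 30 and 20% in DA and 40% in LEW. With 20% for all TLH hepatocytes the log2 fold change of Cyp4a2 was 3.79. Libraries were clustered with sctransform 0.4.2 and Seurat 5.3.0. A cluster was named from at least 3 markers among its 30 leading genes, and otherwise hepatocyte from 3 among 200 over non-hepatocyte classes. That limit of 200 was set after 3 nuclei clusters had stayed unnamed at 100, and 100 is an alternative. Doublets were not removed, and pairs of nuclei libraries shared 1 to 6 kept barcodes. Counts were summed per rat and tested with edgeR 4.0.16 (TMM, quasi-likelihood, Benjamini-Hochberg adjusted p under 0.05), and SE is the log2 fold change over the root of F. DESeq2 1.42.0 was an alternative. Genes named were the 8 members, Cyp4a8, the 3 largest calls per list and the 5 nearest genes. A gene that this rule names is not reported here, though the counts include it. Members and lists were chosen with earlier results of these data known. Only the strain fits in TLH and nuclei were tested on simulated data. Replicates are rats, and p-values of the strain fits measure the spread between 2 per strain. Those of the zone fit and the Cyp4a2 UMI fits measure the spread of a difference within rats over 4 rats. Those of the zone by strain fit measure how the zone difference varies between the 2 rats of each strain.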

Additional observations from a re-analysis of the deposited data

Results flagged for a closer look

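The zone difference of 9 named genes differed between the strains by the interaction test in nuclei (edgeR adjusted p under 0.05, log2 difference of DA minus LEW). They are the members past the threshold and the largest calls per list, so their number is no result about the lists. Over all 9315 genes tested, 0.784% were called larger and 3.99% smaller in DA. Cyp4a2 gave -1.84, Acsl5 -1.56, Scd -0.965, Aqp9 -0.952 and Retsat -0.868, smaller in DA. Crot gave 1.22, Cyp4a3 1.14, Cyp4f17 1.14 and Acacb 0.892, larger in DA. The number of genes called in this test ranged from 2 to 1469 as each rat was left out, 2 without LEW replicate 1, 8 without LEW replicate 2, 60 without DA replicate 1 and 1469 without DA replicate 2.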

How the results depend on the processing

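The main counts of genes called were 422 for strain in TLH, 136 for strain in nuclei, 1 for the difference between platforms, 378 for zone, 445 for zone by strain, 1082 for nuclei with Cyp4a2 and 280 for TLH cells with Cyp4a2. With no filter on low counts, strain in TLH gave 1135, strain in nuclei 528 and zone 595. DESeq2 gave 242 for strain in nuclei. With the replicate number as a block, strain gave 174 in TLH and 353 in nuclei. The labels give no shared animal or batch behind a number, and same-numbered sums deviated with r = -0.154 in TLH and 0.0837 in nuclei. The crossed pairing, chosen after seeing the data, gave 766 in TLH. Leaving out 1 library gave 27 to 279 for strain in TLH, 5 to 270 for strain in nuclei, 0 to 5 between platforms, 154 to 857 for zone, 2 to 1469 for zone by strain, 187 to 1182 for nuclei with Cyp4a2 and 80 to 325 for TLH cells with Cyp4a2. The cause was not tested. The remaining alternatives stayed within 1.5 times, and no named gene reversed past the threshold. The limit of 100 leading genes, also added later, gave 174 in nuclei. Depth limits Ppara, Pdk4 and Cyp4a3 in TLH, with 12 to 71 UMIs per library. Low counts also limit Cyp4f5 in TLH and Ppargc1a in nuclei.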
